A study of Mus musculus with 14 samples.

Results

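Hepatic stellate cells store vitamin A in the healthy liver and are the main source of scar matrix once they are activated. A set of 10 genes of stellate cell activation and matrix remodelling was followed in mouse liver on 3 diets. The genes were chosen by name, and each was read from the row of that symbol in the authors' table of 22850 gene rows. They were Tgfb1, Acta2, Des, Timp2, Timp3, Lox, Dcn, Lum, Lrat and Lgals1, and no symbol occurred on more than 1 row. All 10 had the same coordinates and strand in the mm9 gene annotation used here.

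RNA was sequenced from 14 livers of C57BL/6N mice that began their diets at 7 weeks of age. In the HFWD+F/S group, 5 mice received a high-fat Western diet with 40% of energy from fat and drinking water holding 42 g/L of sugar, of which 55% was fructose and 45% sucrose. In the HFWD group, 5 mice received that diet without the sugar. The chow group was 4 mice on a diet with 12% of energy from fat. The labels give neither sex nor time on the diet, and livers are numbered here only to name them.

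Activation turns a quiescent, lipid-storing stellate cell into a myofibroblast: transforming growth factor beta drives it, the cell builds contractile filaments, loses its retinyl esters and deposits collagen. Tissue inhibitors of metalloproteinases then slow the breakdown of that matrix, while lysyl oxidases cross-link it and small proteoglycans space its fibrils. In RNA from whole liver, fewer cells of a type and less RNA per cell cannot be told apart.

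Galectin-1 had the largest difference of the set, but its call was not stable. The Lgals1 row rose 4.03-fold in HFWD+F/S livers against chow livers (95% interval 1.92 to 8.48, limma adjusted p = 0.0217), and it was the sole member to pass the test in any of the 3 comparisons. Of all tested rows, 5.67% were called higher and 3.38% lower in HFWD+F/S against chow, so the Lgals1 call does not set the members apart from the table. The Lgals1 call ended in 4 of the 14 fits that left out a single liver. It also ended with no filter on low rows (limma adjusted p = 0.0639) and with only HFWD+F/S and chow in the fit (limma adjusted p = 0.0516). Timp2 had the next largest difference, 2.89-fold in HFWD+F/S against chow, and did not pass (adjusted p = 0.0618). The rows of Acta2 and Tgfb1, the usual signs of stellate activation, stood at about the same level on all 3 diets. The Tgfb1 row stood above that of Alb, the albumin gene, and which reads the Tgfb1 row held was not tested. Des was close to no reads and Lox was at the lowest value of the table in all 14 livers.

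**Figure D1:**
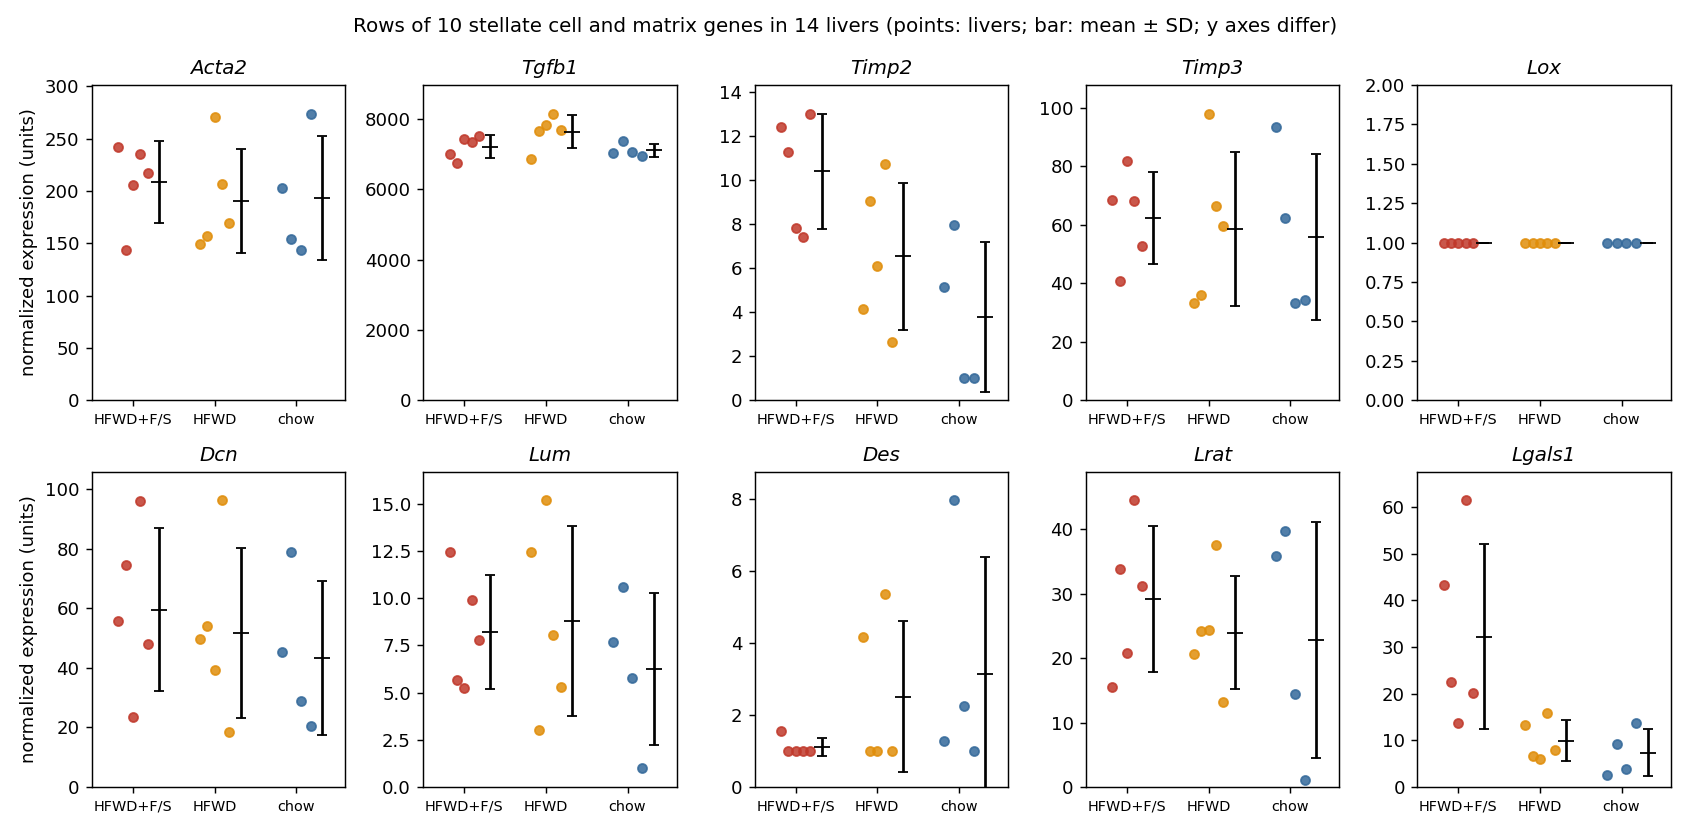
Normalized units of the 10 members in each of the 14 livers, 1 panel a gene, with HFWD+F/S, HFWD and chow from left to right; points are livers, horizontal lines group means and vertical bars 1 SD, with the bar cut at 0 where the SD exceeds the mean. Lgals1 lay between 13.7 and 61.5 units in HFWD+F/S livers and between 2.56 and 13.7 units in chow livers, while the 3 groups overlapped for the other genes.

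The values are normalized units on a linear scale, with a floor of 1 that stands for no or almost no reads. Of the 10 members, 9 stood above the floor in at least 4 livers and were tested, among 14770 rows that did so. One read was worth 2.47 to 6.85 units, so that the libraries held the equivalent of 3.77 M reads (chow 4) to 9.34 M reads, with a median of 8.35 M and 5.83 M in HFWD 1. Livers of 1 group were not copies of each other: the chi-square per degree of freedom between them was 6.65 to 57.3. Some rows stood far from other markers of the same cell type. The row of Cd8a, a T cell gene, averaged 14578 ± 1379 units in HFWD+F/S livers, 14627 ± 390 units in HFWD livers and 17703 ± 996 units in chow livers, yet Cd3e, which every T cell uses, was at the floor in all 14. A row may thus hold reads of a gene on the opposite strand, which was not tested for any member, the high Tgfb1 row included. Each member is given below with its highest neighbour on the opposite strand within 200 kb.

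Tgfb1 encodes the ligand that drives stellate activation, and its row (chr7:26472021-26490096, plus strand, mm9) was the highest of the set. It also stood above the Alb row, which had 3430 ± 874 units in HFWD+F/S, 2913 ± 900 in HFWD and 2697 ± 163 in chow livers. Which reads the Tgfb1 row held was not tested, so the level and spread given here are those of the row. HFWD+F/S livers had 7006, 6750, 7442, 7352 and 7533 units, HFWD livers had 6880, 7654, 7848, 8161 and 7684 units, and chow livers had 7048, 7392, 7059 and 6946 units. The 3 groups overlapped. Means were 7217 ± 328 units in HFWD+F/S, 7645 ± 473 units in HFWD and 7111 ± 194 units in chow (SD). The log2 difference was 0.02 ± 0.07 (SE) for HFWD+F/S against chow (adjusted p = 0.894) and 0.10 ± 0.07 for HFWD against chow (adjusted p = 0.518). The interval of the fold for HFWD+F/S against chow ran from 0.915 to 1.12. Tgfb1 also varied little from mouse to mouse: its SD within groups was 0.07 on the log2 scale, and of the 500 tested rows nearest to it in mean level 5.8% had a lower one.

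Acta2 encodes alpha smooth muscle actin, the contractile filament protein by which activated stellate cells are recognised; vascular smooth muscle holds it too. The row (chr19:34315580-34329826, minus strand) had 242, 144, 206, 235 and 217 units in HFWD+F/S livers. HFWD livers had 149, 157, 270, 206 and 169 units. Chow livers had 203, 154, 144 and 274 units. The lowest and the highest of the 14 values were both in chow livers. Means were 209 ± 39.1 units in HFWD+F/S, 190 ± 49.8 units in HFWD and 194 ± 59.5 units in chow (SD). Acta2 gave log2 differences of 0.13 ± 0.22 for HFWD+F/S against chow (adjusted p = 0.752) and -0.01 ± 0.22 for HFWD against chow (adjusted p = 0.991), with fold intervals of 0.796 to 1.51 and 0.720 to 1.37. These intervals leave room for a change of up to about 1.5-fold in HFWD+F/S livers.

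Desmin, the intermediate filament protein of muscle, marks quiescent and activated stellate cells in rodents. Its row (chr1:75356904-75365154, plus strand) held at most the equivalent of 3 reads in any liver. HFWD+F/S livers had 1.55, 1, 1, 1 and 1 units, HFWD livers had 4.15, 1, 1, 5.36 and 1 units, and chow livers had 1.28, 7.96, 2.25 and 1 units. Of the 14 livers, 8 were at the floor, so that no diet difference of Des was detectable at this depth (adjusted p = 0.391 for HFWD+F/S against chow). Acta2 at up to 95 read equivalents a liver was therefore measurable and Des was not.

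The promoters of these 2 cytoskeletal genes are shown because both are textbook targets of serum response factor, which binds the CArG box (CC, a run of A and T bases, then GG), and because 1 of the genes was measured here and the other was nearly absent. Both are RefSeq sequences of build GRCm38.p6, from 250 bases before to 50 bases after the RefSeq start of transcription. Acta2 is chr19:34255324-34255623 on the minus strand and Des is chr1:75360042-75360341 on the plus strand. They run 5′ to 3′ on the strand of the gene. Capitals mark CArG boxes in which 1 base of the A and T run is a C or G, and a TATANA motif.
Acta2: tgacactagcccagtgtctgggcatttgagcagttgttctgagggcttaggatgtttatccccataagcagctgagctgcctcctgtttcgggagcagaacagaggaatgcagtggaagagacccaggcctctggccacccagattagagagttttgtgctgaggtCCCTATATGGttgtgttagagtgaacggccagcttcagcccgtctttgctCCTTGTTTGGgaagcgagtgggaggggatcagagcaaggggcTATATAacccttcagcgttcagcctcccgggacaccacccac
Des: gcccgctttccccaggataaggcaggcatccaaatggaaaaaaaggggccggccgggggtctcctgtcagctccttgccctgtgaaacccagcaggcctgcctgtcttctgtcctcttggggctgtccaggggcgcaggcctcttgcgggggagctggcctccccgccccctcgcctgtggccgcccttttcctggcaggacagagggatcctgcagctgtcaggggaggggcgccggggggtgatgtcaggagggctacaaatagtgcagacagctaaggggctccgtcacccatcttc

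In the Acta2 window a script found 2 such 1-substitution CArG boxes, at -84 and -34 from the start, and 0 exact ones. An exact CArG box was in 1.63% of 32851 RefSeq promoters of this length, and one with 1 substitution in 8.5%, both strands searched. The Acta2 window also held 1 TATANA motif, 9 bases past the start, which 24.7% of promoters hold. The Des window held neither form of the CArG box and no TATANA, and says nothing on Des beyond these 300 bases. The E-box letters CANNTG, found in 72.3% of promoters, occurred 3 times in Acta2 and 2 times in Des. RefSeq promoters were at hand for 6 of the 10 members (Acta2, Tgfb1, Timp2, Timp3, Des and Lrat). Of these, Timp3 held 2 and Lrat 1 of the 1-substitution CArG boxes, and Tgfb1 and Timp2 held 0.

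TIMP-2 and TIMP-3 are secreted inhibitors of matrix metalloproteinases, and TIMP-3 binds to the matrix itself. The Timp2 row (chr11:118162383-118217054, minus strand) had 12.4, 11.3, 7.82, 7.42 and 13.02 units in HFWD+F/S livers. HFWD livers had 4.15, 9.06, 6.08, 10.7 and 2.64 units, and chow livers had 5.13, 7.96, 1 and 1 units. All but 1 of the 4 chow livers lay below every HFWD+F/S liver, and chow 2 lay above 2 of them. Means were 10.4 ± 2.61 units in HFWD+F/S, 6.53 ± 3.35 units in HFWD and 3.77 ± 3.40 units in chow. Timp2 differed by 1.53 ± 0.50 on the log2 scale in HFWD+F/S against chow, a fold of 2.89 with an interval of 1.40 to 5.97 (limma adjusted p = 0.0618; unadjusted p = 0.0238 in an exact permutation test over livers). The counts behind these values were 3 to 5 read equivalents in an HFWD+F/S liver and 0 to 3 in a chow liver. Leaving out chow 2 alone brought Timp2 past the threshold (adjusted p = 0.0215), as did weighting the libraries by their quality (adjusted p = 0.0335).

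Timp3 (chr10:85763117-85812251, plus strand) had 68.4, 40.9, 81.9, 68.2 and 52.6 units in HFWD+F/S livers. HFWD livers had 33.2, 36.1, 98.1, 66.6 and 59.6 units and chow livers had 93.6, 62.4, 33.2 and 34.3 units, so that the groups overlapped over most of their range. The log2 difference of Timp3 was 0.25 ± 0.36 for HFWD+F/S against chow (adjusted p = 0.716) and 0.09 ± 0.36 for HFWD against chow (adjusted p = 0.940).

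Lysyl oxidase, which cross-links collagen and elastin, could not be followed. The Lox row (chr18:52675723-52689521, minus strand) was at 1 unit in all 14 livers and was not tested.

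Decorin and lumican are small leucine-rich proteoglycans that bind collagen fibrils, and decorin also binds transforming growth factor beta. Their genes lie 47.4 kb apart on the plus strand of chromosome 10. The Dcn row (chr10:96942245-96980777) had 55.8, 74.6, 23.5, 96.2 and 47.9 units in HFWD+F/S livers, 49.7, 54.2, 39.2, 96.3 and 18.5 units in HFWD livers and 45.3, 79.1, 28.8 and 20.6 units in chow livers. Each diet had livers with high and with low Dcn. Its SD within groups, 0.81 on the log2 scale, exceeded that of 96.8% of the 500 tested rows of nearest mean level, whose median SD was 0.45. The means of 59.6 ± 27.5 units in HFWD+F/S, 51.6 ± 28.6 units in HFWD and 43.4 ± 25.9 units in chow gave a log2 difference of 0.48 ± 0.48 for HFWD+F/S against chow (adjusted p = 0.570). That spread between mice allows a Dcn fold from 0.697 to 2.81.

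The Lum row (chr10:97028135-97035337) held at most 5 read equivalents a liver. HFWD+F/S livers had 12.4, 5.64, 5.22, 9.89 and 7.81 units, HFWD livers had 12.5, 3.02, 15.2, 8.04 and 5.28 units, and chow livers had 7.69, 10.6, 5.76 and 1 units. The groups overlapped, and the log2 difference of Lum for HFWD+F/S against chow was 0.54 ± 0.53 (adjusted p = 0.568).

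Lecithin retinol acyltransferase makes the retinyl esters that fill the lipid droplets of quiescent stellate cells, and its loss accompanies activation. The Lrat row (chr3:82696501-82707895, minus strand) had 15.5, 33.9, 20.9, 44.5 and 31.3 units in HFWD+F/S livers, 20.7, 24.2, 24.3, 37.5 and 13.2 units in HFWD livers and 35.9, 39.8, 14.4 and 1 units in chow livers. The chow group held values near both ends of the range. Means were 29.2 ± 11.4 units in HFWD+F/S, 24.0 ± 8.80 units in HFWD and 22.8 ± 18.3 units in chow. The Lrat log2 difference for HFWD+F/S against chow was 0.95 ± 0.67 (adjusted p = 0.408), and it rested on chow 4, the shallowest library, at the floor: without that liver it was -0.01. The SD of Lrat within groups was 1.15 on the log2 scale, above that of 96% of 500 rows of like level. That SD includes chow 4 at the floor. As a percentage of the mean in units, the Lrat SD was 38.9% in HFWD+F/S, 36.7% in HFWD and 80.4% in chow livers. Wide variation between mice on each diet is therefore not shown for Lrat.

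Galectin-1 is a small secreted lectin that binds galactose-bearing glycans; activated stellate cells make it, as do macrophages, endothelium and lymphocytes. The Lgals1 row (chr15:78757155-78760895, plus strand) had 43.4, 22.5, 13.7, 61.5 and 20.1 units in HFWD+F/S livers. HFWD livers had 13.3, 6.64, 6.08, 15.8 and 7.87 units, and chow livers had 2.56, 9.29, 3.92 and 13.7 units. Every HFWD+F/S liver lay above every chow liver, but HFWD+F/S 3 and chow 4 were almost level. HFWD+F/S and HFWD overlapped at that same HFWD+F/S 3. In reads, the 5 HFWD+F/S livers held 59.8 read equivalents in all, the 5 HFWD livers 16.3 and the 4 chow livers 7.86.

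Lgals1 means were 32.2 ± 19.8 units in HFWD+F/S, 9.94 ± 4.34 units in HFWD and 7.37 ± 5.12 units in chow (SD). The log2 difference for HFWD+F/S against chow was 2.01 ± 0.51 (limma adjusted p = 0.0217; exact permutation p = 0.0159, unadjusted, where 0.00794 is the smallest that 5 against 4 livers allow). HFWD alone against chow gave 0.52 ± 0.51 (adjusted p = 0.683). The direct comparison of HFWD+F/S with HFWD gave 1.49 ± 0.48, a fold of 2.81 with an interval of 1.40 to 5.67, which did not pass over all rows (adjusted p = 0.525; exact permutation p = 0.0159, unadjusted). Both HFWD+F/S against chow and HFWD against chow use the same 4 chow livers, so they are not independent of each other.

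The Lgals1 call was not stable to single livers. Its adjusted p was 0.0702 without chow 1, 0.0693 without chow 3, 0.0519 without HFWD+F/S 1 and 0.0638 without HFWD+F/S 4, and stayed under 0.05 when any other liver was left out, with 0.00805 as the lowest, without chow 4. Without both chow 2 and chow 4 it was 0.00632 with a log2 difference of 2.79.

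**Figure D2:**
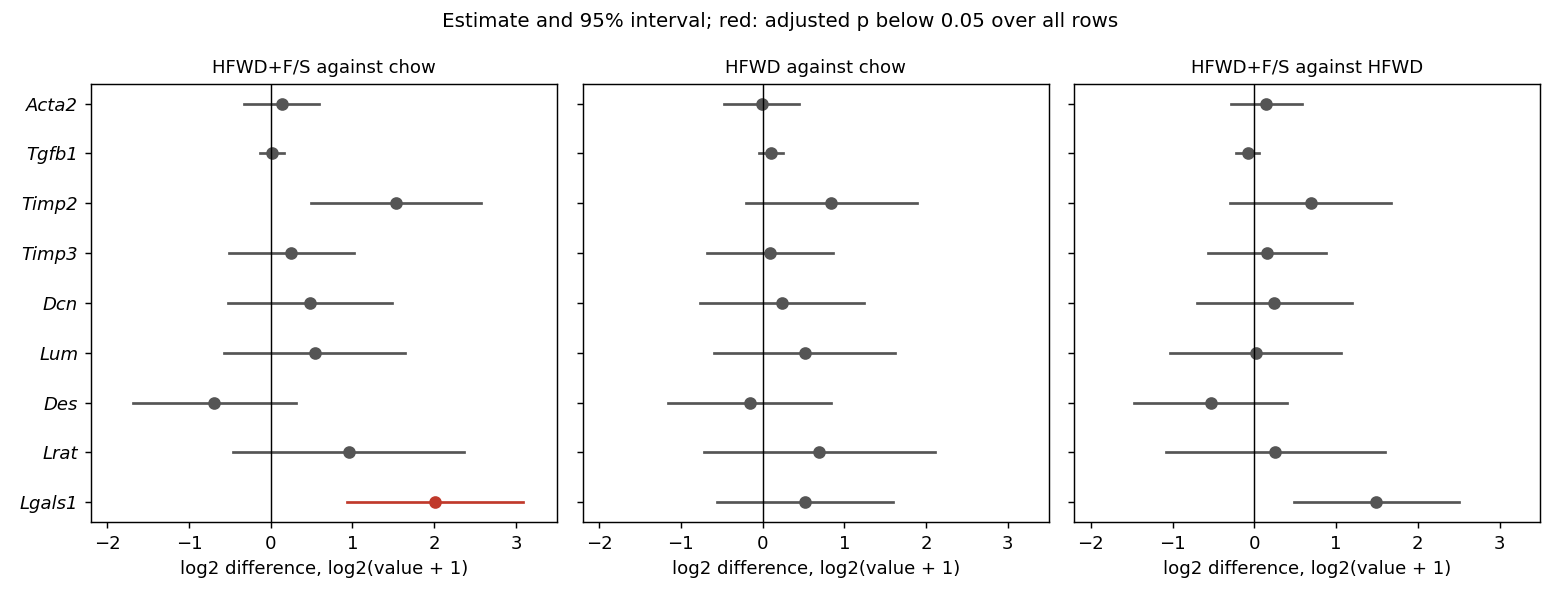
Difference in log2(value + 1) of the 9 tested members in the 3 comparisons, with points for the fitted difference and bars for its 95% interval. The Lgals1 interval for HFWD+F/S against chow, around 2.01, is far from 0, while the Tgfb1 and Acta2 intervals include 0 in all 3 comparisons. The Tgfb1 intervals are narrow, and that of Acta2 for HFWD+F/S against chow runs from -0.33 to 0.60.

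The members' calls were counted beside those of the whole table. In HFWD+F/S against chow 1 of the 9 tested members was higher and 0 were lower, where 5.67% of all 14770 rows were called higher and 3.38% lower. Lgals1 was also the 1 member whose 2 groups did not overlap, where 9.71% of rows had groups that did not. In HFWD against chow 0 members were called in limma, where 2.44% of rows were called higher and 0.934% lower; the lowest unadjusted exact permutation p among members was 0.0714, for Tgfb1. In HFWD+F/S against HFWD 0 members and 0 of all rows were called in limma, although 1273 rows had an unadjusted p under 0.05, and the lowest exact permutation p of a member was that of Lgals1. How the libraries are scaled matters for the size of small differences. The median of all rows was 0.12 higher in HFWD+F/S than in chow on the log2 scale, and centring each library on its median took 0.21 off every difference of that comparison. Higher calls then made up 26.7% of the calls in place of 62.6%, the Acta2 and Tgfb1 differences became -0.08 and -0.19, and Lgals1 still passed with 1.80 (adjusted p = 0.0218).

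Per kb of exon, on the linear scale of units, Tgfb1 stood far above the rest, at 2821 units per kb in HFWD+F/S, 2989 in HFWD and 2780 in chow. Acta2 came next with 117.3 units per kb in HFWD+F/S, 106.9 in HFWD and 108.7 in chow. Dcn had 30.8, 26.6 and 22.4 units per kb in HFWD+F/S, HFWD and chow. Lgals1, the shortest transcript of the set, stood above Dcn in HFWD+F/S livers at 40.3 units per kb, and below it with 12.4 in HFWD and 9.21 in chow livers, but the ranges per kb of the 2 genes overlapped on each diet. Timp3, Lrat, Lum and Timp2 lay between 0.968 and 7.66 units per kb, neighbours in this order whose livers overlap, and Des lay under 1 unit per kb on every diet.

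Counts on both strands around each gene are given as a description. Among the opposite-strand genes only Syn3 overlaps the member it is given with. The shares in the other neighbours cannot tell whether a row held opposite-strand reads, because those genes lie apart from the member. Timp3 lies inside Syn3, a neuronal synapsin gene on the opposite strand, and 1733 exon bases are shared. The Syn3 row averaged 1211 ± 423 units in HFWD+F/S livers, 1291 ± 176 in HFWD livers and 1481 ± 293 in chow livers, 22.2 times the Timp3 mean over all livers. Timp3 was 5.47% ± 1.72 of the Syn3 row in HFWD+F/S, 4.55% ± 2.02 in HFWD and 3.90% ± 2.20 in chow. The difference of that share between HFWD+F/S and chow did not pass an exact permutation test (p = 0.198, adjusted p = 0.524 over 21 such tests). Whether the counting used strand is not given in the sources used here, and without strand the reads of Timp3 and Syn3 in the shared exon bases cannot be told apart; the Timp3 exons span 8144 bases in all.

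Timp2 lies 72.5 kb from C1qtnf1, a secreted C1q and tumour necrosis factor related protein gene on the other strand. The C1qtnf1 row averaged 7307 ± 593 units in HFWD+F/S, 7499 ± 435 in HFWD and 5474 ± 184 in chow livers, and rose by 0.41 ± 0.08 on the log2 scale in HFWD+F/S against chow (adjusted p = 0.00345) and by 0.45 ± 0.08 in HFWD against chow (adjusted p = 0.00255), except when libraries were centred on their medians (adjusted p = 0.247 and 0.0802). Timp2 amounted to 0.143% ± 0.0384 of that row in HFWD+F/S, 0.0867% ± 0.0439 in HFWD and 0.0680% ± 0.0598 in chow (exact permutation p = 0.0397 for HFWD+F/S against chow, adjusted p = 0.278).

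For Lgals1 the highest opposite-strand row within 200 kb was Ankrd54, an ankyrin repeat gene 123 kb away. It averaged 5899 ± 791 units in HFWD+F/S, 6664 ± 738 in HFWD and 6695 ± 629 in chow livers and was not called (log2 difference -0.19 ± 0.11 for HFWD+F/S against chow, adjusted p = 0.289). Lgals1 was 0.573% ± 0.396 of the Ankrd54 row in HFWD+F/S livers, 0.151% ± 0.0653 in HFWD livers and 0.106% ± 0.0684 in chow livers. HFWD+F/S against chow and HFWD+F/S against HFWD both gave the lowest p the exact permutation test allows (p = 0.00794, adjusted p = 0.0833 for each). The nearest opposite-strand gene, Lgals2 at 71.2 kb, averaged 79.8 ± 13.4 units in HFWD+F/S, 90.4 ± 4.33 in HFWD and 90.2 ± 29.5 in chow livers. Neither of these 2 opposite-strand rows was called higher in HFWD+F/S livers. Neither gene overlaps Lgals1, so their rows cannot tell whether the Lgals1 row held opposite-strand reads, which was not tested. On the strand of Lgals1, 17.3 kb away, the row of Triobp, which encodes an F-actin binding protein, was called higher: it had 11.9 ± 0.537 units in HFWD+F/S, 8.74 ± 4.73 in HFWD and 3.20 ± 3.11 in chow livers (log2 difference of HFWD+F/S against chow 1.88 ± 0.47, adjusted p = 0.0210). At 2.47 to 6.85 units a read, the Triobp row rested on few reads in every group. The Triobp call held with any 1 liver left out, up to an adjusted p of 0.0496, and was lost with chow 2 and chow 4 both left out (adjusted p = 0.185).

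Acta2 ends 0.757 kb from Stambpl1 on the other strand, whose row averaged 94.1 ± 18.3 units in HFWD+F/S, 119 ± 52.2 in HFWD and 83.4 ± 23.8 in chow livers, below the Acta2 row. Tgfb1 stood above all of its opposite-strand neighbours within 200 kb, the highest being the predicted gene Gm6434 at 177 kb and a ratio of 0.112 to Tgfb1. Lrat lies 122 kb from Fga, the fibrinogen alpha chain gene, whose row stood 7386 times above it, and on its own strand 138 kb from Fgb at 352956 units over all livers. Des lies 150 kb from Glb1l (5909 units). Within 200 kb of Lox the highest opposite-strand row was Srfbp1 with 6.36 units, and for Dcn and Lum it was Gm10754, at the floor. On the members' own strand the highest rows were Dnahc17 for Timp2, B3gnt8 for Tgfb1, Ankrd22 for Acta2, Gcat for Lgals1 and Stk16 for Des, and of these Stk16 fell in HFWD+F/S against chow (log2 difference -0.51 ± 0.12, adjusted p = 0.0123, and 0.0524 without a variance trend). Of the 21 shares tested, none passed the adjustment.

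**Figure D3:**
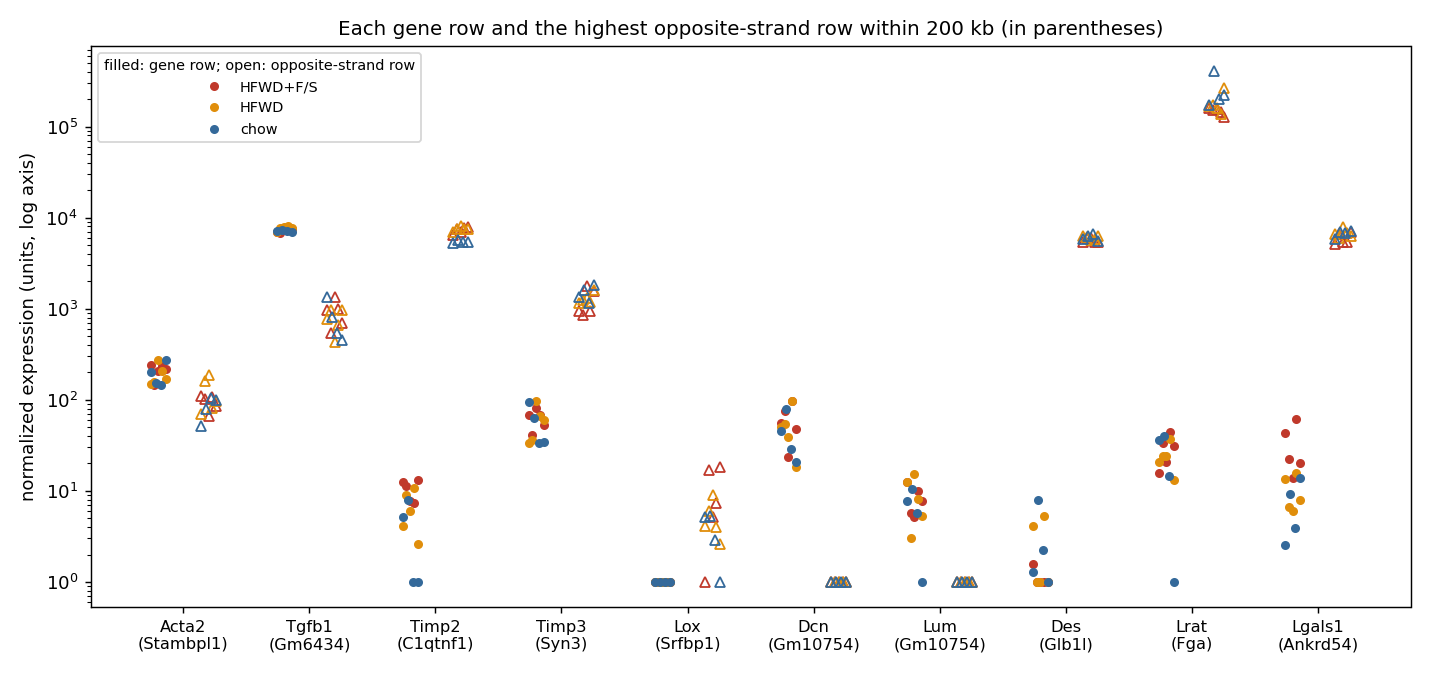
Normalized units in each of the 14 livers, on a log axis, for each member (filled circles) and for the highest row on the opposite strand within 200 kb (open triangles), coloured by diet. By their means Acta2 and Tgfb1 stand above these neighbours, while Timp2, Lrat, Des and Lgals1 stand 373-fold to 7386-fold below theirs.

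Markers of other cell types were summed in each liver beside these results. Hepatocyte markers (10 of 10 tested) summed to 18088 to 27555 units in HFWD+F/S, 16620 to 24752 in HFWD and 21110 to 25469 in chow livers. Sums of this kind do not by themselves identify the cells present, as the rows of Cd8a and Cnn1 stood above Alb of the hepatocyte list. In that list Cps1, which encodes the first enzyme of the urea cycle, fell to 3016 ± 563 units in HFWD+F/S and 3643 ± 979 in HFWD, against 7899 ± 2361 units in chow (log2 difference -1.36 ± 0.21, adjusted p = 0.00101, and -1.10 ± 0.21, adjusted p = 0.00713, the second 0.056 with no filter). The Kupffer cell and macrophage markers (9 of 10 tested) summed to 2286 to 2695 units in HFWD+F/S, 2382 to 2831 in HFWD and 1998 to 2979 in chow livers. Within that list Cd5l, a secreted macrophage protein, rose to 106 ± 55.8 units in HFWD+F/S, against 35.3 ± 12.5 units in chow (log2 difference 1.49 ± 0.33, adjusted p = 0.00990), and the 56.4 ± 5.86 units of HFWD livers did not pass against chow (adjusted p = 0.278).

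Portal fibroblast markers (5 of 8 tested) summed to 3803 to 5298 units in HFWD+F/S, 4099 to 4642 in HFWD and 3174 to 3613 in chow livers. Chow thus lay below both other groups, in a sum that was almost all Pi16 and Clec3b. Pi16 had 3315 ± 165 units in HFWD+F/S, 3554 ± 143 in HFWD and 3114 ± 197 in chow livers. In that list Clec3b, which encodes tetranectin, rose to 1066 ± 441 units in HFWD+F/S, against 182 ± 33.7 units in chow (adjusted p = 7.72e-06), with 743 ± 141 units in HFWD livers, while Thy1, a defining marker, had 1.30 units in HFWD+F/S and was at the floor in HFWD and chow livers. Endothelial markers (10 of 10 tested) summed to 7657 to 9948 units in HFWD+F/S, 8222 to 9475 in HFWD and 8262 to 12174 in chow livers. Vascular smooth muscle markers (6 of 7 tested, Actg2 at the floor) summed to 10284 to 10864 units in HFWD+F/S, 10990 to 12475 in HFWD and 10042 to 12232 in chow livers. That sum was almost all Cnn1 and Lmod1, while Myh11, the smooth muscle myosin heavy chain, had 9.27 units in HFWD+F/S, 11.1 in HFWD and 9.82 in chow livers. Lymphocyte markers (4 of 7 tested, Cd3e at the floor) were almost all Cd8a and summed to 12540 to 16222 units in HFWD+F/S, 14344 to 15314 in HFWD and 16692 to 19051 in chow livers. Cholangiocyte markers (5 of 7 tested, Krt19 and Cftr at the floor) summed to 21.3 to 83.2 units in HFWD+F/S, 31.4 to 56.4 in HFWD and 9.43 to 85.3 in chow livers. Mesothelial markers (3 of 6 tested) summed to 10.2 to 23.6 units in HFWD+F/S, 8.56 to 15.4 in HFWD and 6 to 25.6 in chow livers. Adipocyte markers (2 of 6 tested, Retn at the floor) were almost all Cidec and Cfd and summed to 2709 to 3222 units in HFWD+F/S, 3090 to 3715 in HFWD and 2885 to 3607 in chow livers. The part of any of these cells in the Lgals1 difference was not tested.

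The stellate label itself rests on few reads. Of 20 further stellate cell markers 19 were tested, and they summed to 3138 to 5325 units in HFWD+F/S, 2877 to 3343 in HFWD and 2588 to 3990 in chow livers, led by Angptl6. Defining markers were low: Pdgfrb, the platelet-derived growth factor receptor beta, had 3.43 units in HFWD+F/S, 2.01 in HFWD and 3.09 in chow livers, and Gfap, the intermediate filament of glia and stellate cells, had 2.42 units in HFWD+F/S, 1.66 in HFWD and 4.69 in chow livers. Reln, a stellate marker of mouse liver, was measurable at 116 ± 15.0 units in HFWD+F/S, 96.3 ± 17.7 in HFWD and 106 ± 13.4 in chow livers and was not called (adjusted p = 0.700 for HFWD+F/S against chow). Hand2, a transcription factor of stellate cells, was the 1 marker of this list called, lower in HFWD+F/S than in chow (log2 difference -0.39 ± 0.11, adjusted p = 0.0394). Its row had 421 ± 25.8 units in HFWD+F/S, 424 ± 40.0 in HFWD and 552 ± 70.7 in chow livers, far above Pdgfrb and Gfap. Which reads the Hand2 row held was not tested. The Hand2 call ended in 8 of the 14 fits that left out a single liver (limma adjusted p up to 0.121).

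Of 188 genes listed for the pathways around the members, 161 were tested. In HFWD+F/S against chow 9 rose and 4 fell, which is 5.59% and 2.48% of them, beside 5.67% and 3.38% of all rows. Their median log2 difference was 0.22, beside 0.12 over all rows. In HFWD against chow 2 rose and 2 fell, and in HFWD+F/S against HFWD 0 were called, like all rows.

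In the TGF-beta pathway, 0 of 11 ligands, latency proteins and activators were called in HFWD+F/S against chow (median log2 difference 0.05). Among 15 receptors and SMAD genes Pmepa1 rose, and the median was 0.14. Pmepa1, a TGF-beta target that restrains SMAD signalling, had 40.2 ± 9.91 units in HFWD+F/S, 15.1 ± 10.9 in HFWD and 5.72 ± 4.81 in chow livers, a log2 difference of 2.92 ± 0.69 for HFWD+F/S against chow (adjusted p = 0.0153). It passed with any 1 liver left out, up to an adjusted p of 0.0417. It did not pass with no filter (adjusted p = 0.0661) or without both chow 2 and chow 4 (adjusted p = 0.128). Of 13 target genes Itgb5, an integrin subunit, rose (adjusted p = 0.0414, median of the list 0.48), and Smad7, the inhibitory SMAD, had 199 ± 24.5 units in HFWD+F/S, 207 ± 36.9 in HFWD and 164 ± 42.3 in chow livers (adjusted p = 0.347). In HFWD against chow the latency protein gene Ltbp3 was the sole TGF-beta gene called (log2 difference 0.26 ± 0.07, adjusted p = 0.0421). The highest rows of the 3 lists, Ltbp3, Eng and Fn1, were not called in HFWD+F/S against chow.

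Of 15 contractile and smooth muscle genes, beside Acta2 itself, Cald1 and Tpm2 rose in HFWD+F/S against chow, with a median of 0.17. Cald1, which encodes the actin-binding protein caldesmon, had 218 ± 30.4 units in HFWD+F/S, 178 ± 15.5 in HFWD and 140 ± 9.52 in chow livers (log2 difference 0.62 ± 0.14, adjusted p = 0.0104). The Cald1 call held with any 1 liver left out, up to an adjusted p of 0.0347, and ended when libraries were centred on their medians (adjusted p = 0.0704). Tpm2, a tropomyosin, had a log2 difference of 1.71 ± 0.43 (adjusted p = 0.0221). Tagln, another actin-binding marker of myofibroblasts, had 158 ± 15.8 units in HFWD+F/S, 151 ± 16.2 in HFWD and 136 ± 28.6 in chow livers and did not pass (adjusted p = 0.426). Cnn1, the highest of the list at 8596 units in HFWD+F/S, 9262 in HFWD and 8876 in chow, did not pass either.

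Among genes of matrix turnover, 0 of 3 other metalloproteinase inhibitors (the highest being Tfpi2), 0 of 10 other small proteoglycans (Chad) and 0 of 20 matrix glycoproteins (Lamb1) were called in HFWD+F/S against chow, with medians of 0.49, 0.58 and 0.41. One of 15 metalloproteinases rose, Adamts1 (log2 difference 1.23 ± 0.36, adjusted p = 0.0432), and the highest, Adamts4, was not called. Of 14 cross-linking genes the collagen galactosyltransferase Glt25d1 rose (1.26 ± 0.35, adjusted p = 0.0331) and the lysyl oxidase relative Loxl4 fell (-0.73 ± 0.21, adjusted p = 0.0417). Loxl4, at 73.1 ± 7.45 units in HFWD+F/S, 69.6 ± 18.2 in HFWD and 123 ± 18.9 in chow livers, was lower in HFWD than in chow too (-0.83 ± 0.21, adjusted p = 0.0398). Loxl2 was the highest row of that list and was not called.

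Of 20 genes of retinoid storage and handling, beside Lrat, 2 rose and 2 fell in HFWD+F/S against chow (median 0.21). Rdh10, which oxidises retinol to retinal, fell to 4190 ± 171 units in HFWD+F/S, against 5711 ± 701 units in chow, with 4622 ± 211 units in HFWD livers (log2 difference of HFWD+F/S against chow -0.44 ± 0.08, adjusted p = 0.00344), and it passed with any 1 liver left out. Rdh11, another retinol dehydrogenase, fell as well (-1.56 ± 0.44, adjusted p = 0.0366). The 2 that rose were the carotenoid-cleaving oxygenase Bco2 (adjusted p = 0.0423) and the retinal dehydrogenase Aldh1a1 (adjusted p = 0.0430). HFWD against chow also had Bco2 higher (adjusted p = 0.0468) and Rdh11 lower (adjusted p = 0.0196). Aldh1a2, the highest row, was not called.

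The list of other galectins had 7 tested rows, among them Lgals3bp, which encodes a galectin-binding protein and not a galectin. Of these Lgals9 rose in HFWD+F/S against chow (log2 difference 0.81 ± 0.23, adjusted p = 0.0400), to 140 ± 43.9 units in HFWD+F/S, against 77.9 ± 15.7 in chow, with 100 ± 19.0 in HFWD livers. Lgals3, the galectin of macrophages, had 29.7 ± 23.2 units in HFWD+F/S, 19.8 ± 6.73 in HFWD and 15.0 ± 8.78 in chow livers (adjusted p = 0.403), and Lgals8, the highest, was not called. Of 9 intermediate filament genes 0 were called (median -0.11), among them Vim (281 ± 43.2 units in HFWD+F/S, 296 ± 62.1 in HFWD and 205 ± 77.6 in chow, adjusted p = 0.138) and Synm, the highest. Most of these list calls hung on single livers. Without HFWD+F/S 4 the calls of the 161 genes in HFWD+F/S against chow came down to 3, Cald1, Pmepa1 and Rdh10, while the other ten had adjusted p from 0.0561 for Tpm2 to 0.114 for Aldh1a1. Leaving out any other liver gave 4 to 17 calls. Without chow 3 all 4 calls of HFWD against chow ended, with adjusted p of 0.0893 for Ltbp3, 0.133 for Loxl4, 0.0545 for Rdh11 and 0.0632 for Bco2.

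**Figure D4:**
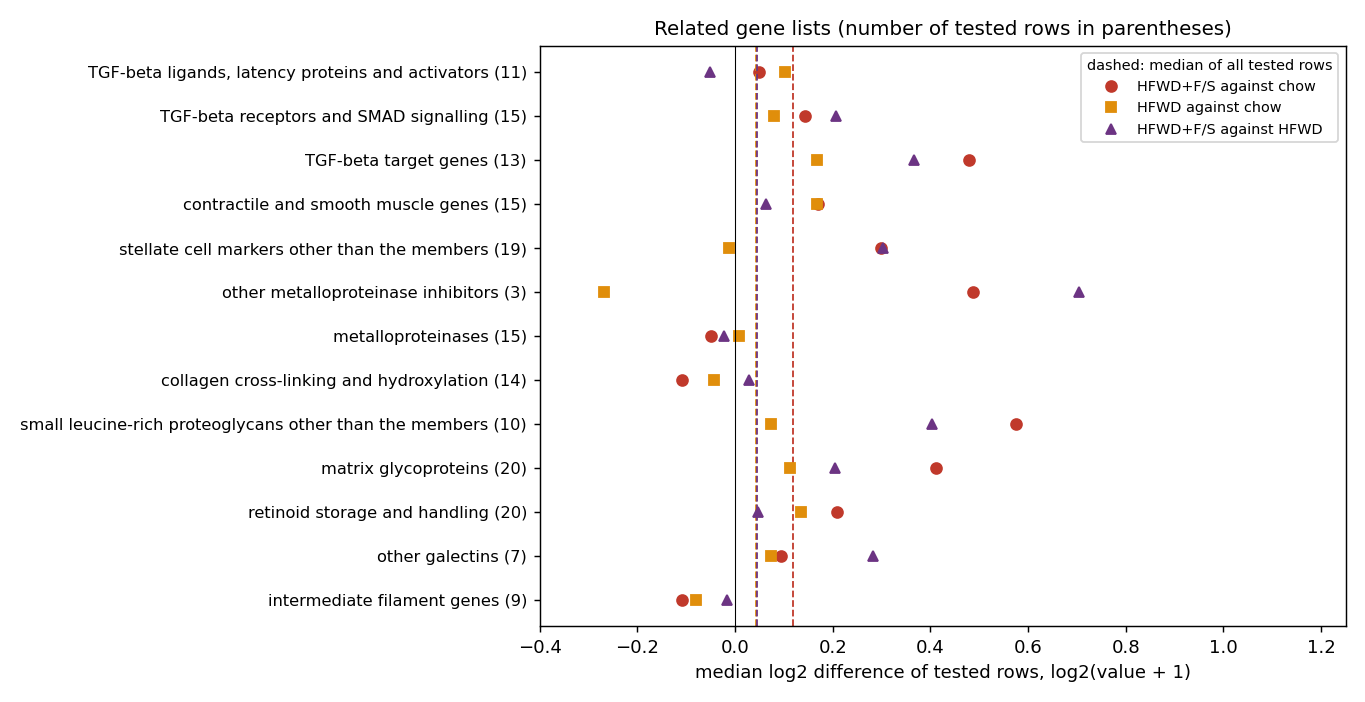
Median log2 difference of the tested genes of each pathway list in the 3 comparisons, with the medians of all 14770 rows as dashed lines, of which those of HFWD against chow (0.04) and HFWD+F/S against HFWD (0.05) coincide. For HFWD+F/S against chow the list medians run from -0.11 to 0.58, around 0.12 for all rows.

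The 4 members with the levels to allow it averaged at least 50 units and were set beside the 6722 rows of that level for likeness of pattern over the 14 livers, as a description that shares the same libraries and depths. Acta2 was most like Fam98b (Pearson r = 0.910, Spearman rho = 0.912), then Fancl (r = 0.834, rho = 0.789) and Ripply3 (r = 0.795, rho = 0.780). Without the 2 livers farthest from the Acta2 median these r were 0.903, 0.804 and 0.707. Dcn was most like Cdh2, the N-cadherin gene (r = 0.927, rho = 0.930, and 0.867 without 2 livers), then Pzp (r = 0.902, rho = 0.899, and 0.890) and Grlf1 (r = 0.902, rho = 0.903, and 0.83). For Tgfb1 the nearest were Daglb (r = 0.854, rho = 0.789), Ccdc36 (r = 0.846, rho = 0.851) and Lsm4 (r = 0.774, rho = 0.688), with 0.810, 0.746 and 0.713 without 2 livers. For Timp3 they were Noa1 (r = 0.784, rho = 0.793), Ints12 (r = 0.757, rho = 0.793) and Xpot (r = 0.724, rho = 0.714), with 0.708, 0.747 and 0.687. The rows named for each member are the highest of 6722 over only 14 livers. How high r runs from that selection alone was not tested. None of these rows is a member, but only the 4 members of at least 50 units could have been among them. Between the tested members, with group means taken out, 25 of 36 pairs had a positive Pearson r (median 0.35). The pairs ran from 0.717 for Timp2 and Dcn to -0.396 for Acta2 and Lrat. These pairs share the same libraries and depths too, and several members rest on few reads.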

How the data were processed

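Total RNA of 14 mouse livers was depleted of ribosomal RNA (Ribo-Zero Gold) and sequenced, per the labels' protocols. The submitters' processing notes name FastQC, TopHat2 2.0, SAMtools and mouse build mm9. How reads were counted, on which strand, and how they were scaled is not given in the sources used here, so a row may hold reads of the opposite strand. Each value is a normalized signal of 1 gene in 1 library, deposited by the authors in 1 table, with a floor of 1. At low values 53.9% to 65.7% were whole multiples of 1 read within 0.02, so counts were not recovered.

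The signal was taken as log2(value + 1). Rows above the floor in at least 4 libraries entered limma 3.58.1 (R 4.3.3) with 3 group means, all 14 libraries and a variance trend. Two-sided p-values were adjusted by Benjamini-Hochberg over all 14770 rows, at a threshold of 0.05. Fold changes on this scale understate the change of low rows. Read equivalents are the value over the worth of 1 read, and 0 at the floor. Exact permutation tests ran over livers. The labels do not say outright that each library is another animal, and p-values measure no more than the spread among these libraries. The fit was checked on simulated data.

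The members, the lists and the alternatives were chosen with earlier results of these data known. Named were the members, the highest row on each strand within 200 kb, in each list the 2 called genes of smallest p and the highest row, and for likeness the 3 rows of highest r; the other genes named were chosen after their values were seen.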

Additional observations from a re-analysis of the deposited data

Results flagged for a closer look

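One of 27 groups of member values was flagged as holding a liver far from the others. In the Des row, HFWD+F/S 1 had 1.55 units, the equivalent of 0.5 reads, while the other HFWD+F/S livers were at the floor of 1. With those livers tied at the floor, any value above it would have been flagged, so the flag says nothing more about that liver.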

How the results depend on the processing

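Of 663 alternative values of the member differences, 653 kept the state they had as reported, called or not called. Exact permutation tests were judged here on unadjusted p. The sole difference called as reported, Lgals1 in HFWD+F/S against chow, lost its call in 6 of 24 settings. Depth limits Timp2, Lum, Des and Lox, and Lgals1 too, whose 4 chow livers held 7.86 read equivalents in all. Calls over all rows in HFWD against chow, 499 as reported, were 309 with no filter, 275 with median centring, 1021 with array weights, 240 with only the 2 groups in the fit, 246 without a variance trend and 920 without both chow 2 and chow 4. In HFWD+F/S against chow, 1336 as reported, they were 774 with no filter, 2174 with array weights and 745 both with only the 2 groups and without a trend. Leaving out 1 liver gave 260 to 1050, 679 to 1768 and, for HFWD+F/S against HFWD, 0 to 1. Members called in HFWD+F/S against chow were 0 with no filter, 0 with a mean of at least 20 units (where Lgals1 was not tested), 0 with only the 2 groups, 2 with array weights and 0 to 2 with 1 liver left out. Of the 161 list genes, 6 were called there with no filter, 24 with array weights, 5 with only the 2 groups and 3 to 17 with 1 liver left out. In HFWD against chow, list calls were 2 with no filter, 1 with median centring, 0 with only the 2 groups, 2 without a trend and 0 to 6 with 1 liver left out. The Lgals1 log2 difference against chow stayed between 1.21 (pseudocount 10) and 2.79; its adjusted p was 0.0639 with no filter and 0.0516 with only the 2 groups. With a window of 50 kb the highest opposite-strand neighbour of Tgfb1 became Tmem91, and the log2 ratio for HFWD+F/S against chow was 0.47 in place of -0.25. The causes were not tested. No paired analysis was possible because the labels give the groups no shared replicate numbers.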
